A study of Homo sapiens with 6 samples.

Results

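The cytosolic ribosome is built from ribosomal RNA and a set of ribosomal proteins, named RPS for the small 40S subunit and RPL for the large 60S subunit. The members described here are the rows of the count table whose symbol is RPL or RPS followed by a number, with or without a final A, X or L, together with RPSA, RPLP0, RPLP1 and RPLP2 and without RPS27L, a paralog. This rule took 82 of the 56638 rows, 33 for the small and 49 for the large subunit, and it used names only, no measured value. It missed FAU and GNB2L1, which encode ribosomal proteins under other names, and it took RPS10L, which RefSeq lists as a synonym of the pseudogene RPS10P5.

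Ribosomal protein messages are among the most abundant in dividing cells, and most of the proteins are needed in equal numbers for each ribosome. Most start with a C followed by an unbroken run of pyrimidines, the terminal oligopyrimidine (TOP) motif, through which the kinase mTOR and the RNA-binding protein LARP1 control their translation. Transcript level is therefore only part of their control, and ribosomal proteins made in excess of ribosomal RNA are degraded. In leukaemia and other blood disorders the family is known for RPS14, whose loss contributes to the anaemia of the 5q deletion, and for the members mutated in Diamond-Blackfan anaemia.

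The cells were MOLM-13, an established cell line from a human monocytic acute myeloid leukaemia, cultured for 24 h with 2 µM UC-764864 (spelled UC-744864 in the design text), an inhibitor of the ubiquitin-conjugating enzyme UBE2N, or with the solvent DMSO. Both groups held 3 poly(A) RNA libraries. UDI0051, UDI0052 and UDI0053 came from treated cells and UDI0054, UDI0055 and UDI0056 from DMSO cells, by the table that pairs columns with treatments. All 6 are the same line in the same serum-containing medium, and whether each library had a culture of its own is not stated, so the p-values cover the spread among these 6 libraries alone, and that spread may be technical.

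Totals were 16136156 to 25014437 counts per library. The column of UDI0055 stands at 0 in 3799 neighbouring rows, among them the X-linked genes, and these zeros were read as missing values, so the tests used the 52839 rows that every library holds. In UDI0052 and UDI0056 the GC-rich genes, above the upper quartile of GC content, took 17.9% and 17.6% of the counts, against 20.7% to 23.1% in the other 4 libraries. Of 12 genes that mark MOLM-13 cells 11 were above 1 CPM (counts scaled to a common library size) in all 6 libraries, the exception being CD68 at 0.286 to 0.721 CPM. Of 16 markers of lymphoid, erythroid, epithelial, stromal and liver cells that every library holds, 3 were above 1 CPM in all 6 (NCAM1, KRT8 and KRT18), MS4A1 and HBG1 were among those at 0 throughout, and the list summed to 65.3 to 66.7 CPM with UC-764864 and 60.0 to 65.2 CPM with DMSO. The MOLM-13 list summed to 6554 to 7578 CPM with UC-764864 and 4363 to 4697 CPM with DMSO. LYZ had the largest level in it, at a mean of 5848 against 3170 CPM. Without LYZ the list summed to 1218 to 1247 CPM with UC-764864 and 1308 to 1401 CPM with DMSO, and ITGAM (-1.02, edgeR adjusted p = 0.00357), HOXA9 (-0.73, adjusted p = 0.00647) and CSF1R (-0.58, adjusted p = 0.0179) fell on the log2 scale. The part of this list and of the other markers in the results below was not tested.

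The sequences around the transcription start show the feature by which these messages are regulated, and are given for the 5 members that passed the test and for RPS26, which just missed it. They come from RefSeq (GRCh38.p14), run 5′ to 3′ on the gene's strand and hold 20 bases before the listed start and 25 bases from it. Capitals mark the run of C and T, beginning with C, that lies nearest the start, where one of at least 5 bases begins within 10 bases of it.

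RPS10, chr6:34426045-34426089, minus strand: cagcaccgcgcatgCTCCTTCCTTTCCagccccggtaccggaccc
RPL38, chr17:74203658-74203702, plus strand: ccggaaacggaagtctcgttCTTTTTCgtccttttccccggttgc
RPL17, chr18:49492441-49492485, minus strand: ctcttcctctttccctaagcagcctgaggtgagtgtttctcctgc
RPS14, chr5:150449715-150449759, minus strand: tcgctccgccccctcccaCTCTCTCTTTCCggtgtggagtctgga
RPL34, first listed start, chr4:108620556-108620600, plus strand: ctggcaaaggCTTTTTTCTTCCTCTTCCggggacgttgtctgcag
RPS26, chr12:56041898-56041942, plus strand: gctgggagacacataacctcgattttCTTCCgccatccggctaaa

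The capitalised runs were 13 bases long in RPS10, 7 in RPL38, 12 in RPS14, 18 in RPL34 and 5 in RPS26. At the listed start of RPL17 no run met the rule, and the long stretch of C and T in its sequence lies further upstream. RPL34 has a second listed start without such a run. Such a run was present at a listed start in 57 of the 63 members that RefSeq's promoter table holds (90.5%), against 10494 of its 27305 genes (38.4%). Members that rose, members that fell and members that did neither thus shared the feature, and RPL17, which rose, lacked it at its listed start. In the 300 bases around the start, searched on both strands, CGGAAG, the core bound by ETS factors, was found in 63.5% of members and 22.6% of all genes. CTTTTCC was found in 25.4% and 10.1%, CTTTCC in 47.6% and 30.2%, AAGATGG (the YY1 core) in 12.7% and 7.11%, and TATAAA (the TATA box) in 9.52% and 14.0%. A matched motif is a run of letters, and no binding was measured here.

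After UC-764864, most ribosomal protein messages stayed close to their level in DMSO. Of the 76 members tested, 3 rose (RPS10, RPL38 and RPL17) and 2 fell (RPS14 and RPL34) at an adjusted p under 0.05 (edgeR quasi-likelihood test, Benjamini-Hochberg over 13490 genes). Over all tested genes 5.11% rose and 8.13% fell, 13.2% together. The median log2 fold change of the members was -0.02, beside 0.01 for all genes, with 34 members above and 42 below 0. Of the 76, 63 lay within 0.25 of 0 on the log2 scale, a larger share than the 6951 of all 13490 genes. CPM is relative to each library's total, so a change in RNA content per cell is not visible, and in bulk RNA a change in level cannot be told apart from a change in the make-up of the culture.

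**Figure D1:**
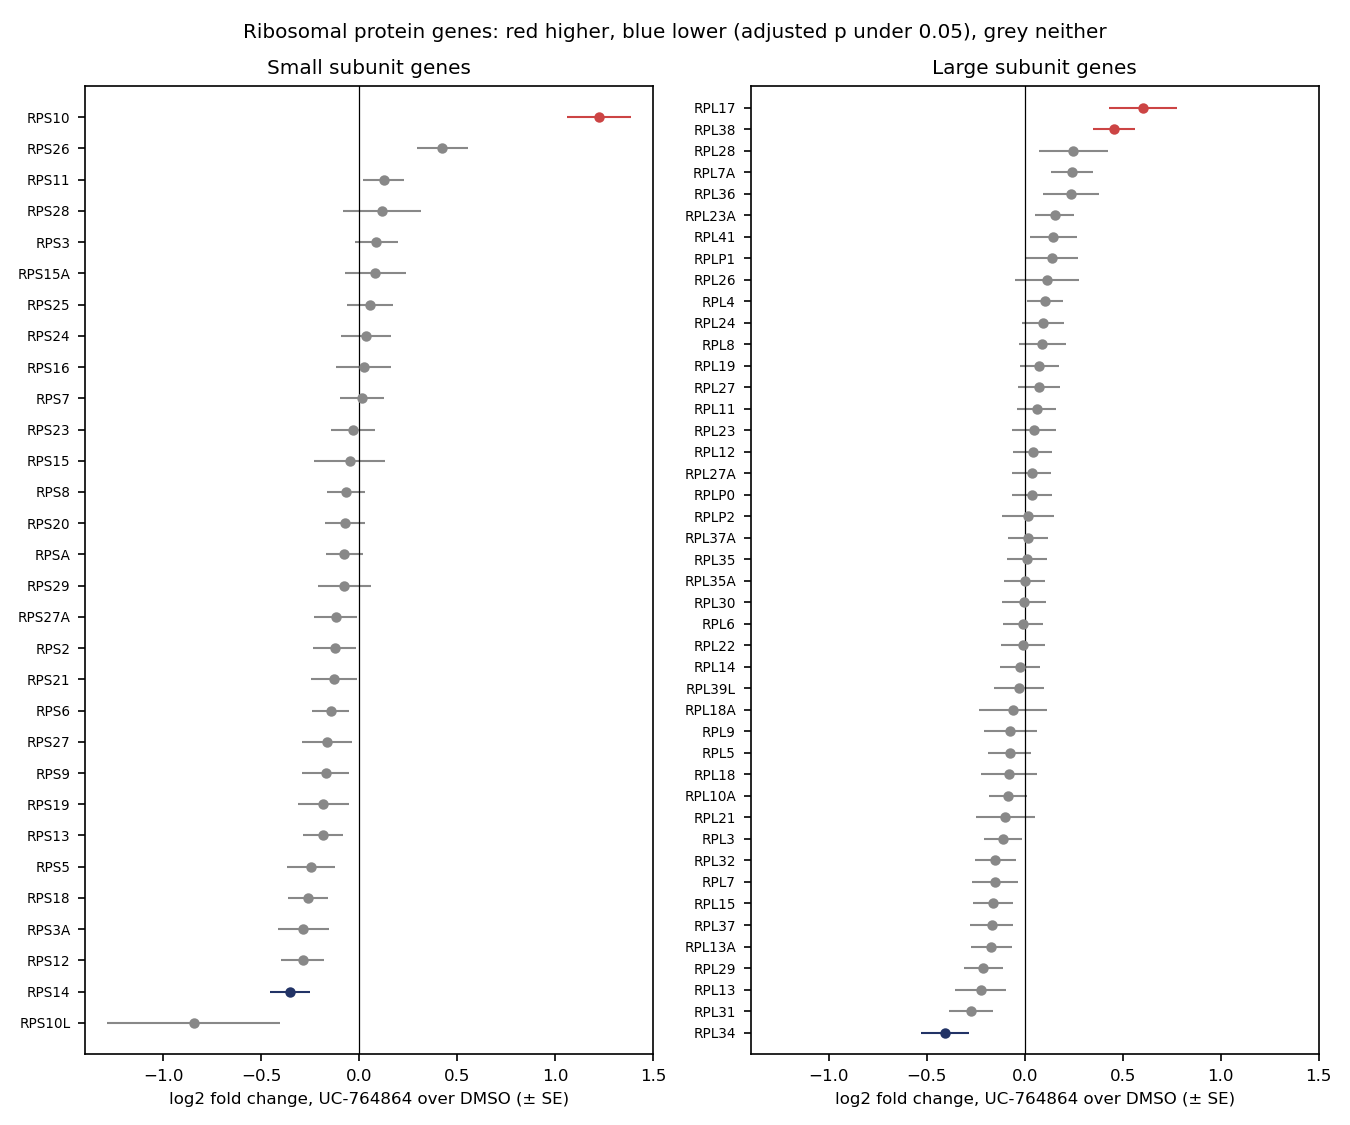
Log2 fold change of 74 of the 76 tested ribosomal protein genes, UC-764864 over DMSO (x axis), with bars of 1 standard error, for small subunit genes (left) and large subunit genes (right) in order of size. RPS10 at 1.22 stands outside the range of the others that rose, and RPS10L has the widest bar.

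Most members were abundant and had small standard errors. Leaving out RPS10, RPL17 and 3 uneven or sparse rows, RPS10L among them, the other 71 tested members had standard errors of 0.0912 to 0.199 on the log2 scale, with a median of 0.111, and log2 fold changes between -0.41 and 0.46. An unadjusted p under 0.05 was reached by 11 of the 76 members, 5 of them higher and 6 lower, beside 14.9% of all tested genes higher and 16.6% lower at that p, so the members' shares are below the background. RPL10L, a testis paralog, had 0 counts in every library, and RPL3L, a muscle paralog, had 0 to 3 counts per library, so neither was tested. The third restricted paralog, RPL39L, was at 15.3 ± 1.17 CPM with UC-764864 and 15.7 ± 0.449 CPM with DMSO (SD, n = 3 per group).

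Among small subunit proteins, RPS10 sits near the mRNA entry channel and is one of the sites that the ligase ZNF598 ubiquitinates on collided ribosomes. Its level was 25.6, 26.3 and 22.0 CPM in the UC-764864 libraries UDI0051, UDI0052 and UDI0053 and 12.7, 10.5 and 8.24 CPM in the DMSO libraries UDI0054, UDI0055 and UDI0056, from 567, 406 and 418 counts against 287, 256 and 125. Every treated library was above every DMSO library, with no value between 12.7 and 22.0 CPM. The means were 24.6 ± 2.29 and 10.5 ± 2.22 CPM (SD, n = 3 per group), a 2.34-fold rise (log2 1.22 ± 0.16 SE, edgeR adjusted p = 0.00299). RPS10 passed in each of 16 other ways of fitting the data, with log2 fold changes from 0.71 to 1.38 and adjusted p from 1.65e-11 to 0.0479. The lowest value, 0.71 (adjusted p = 0.0102), came when the counts of its pseudogene rows and of RPS10L were added to it. One such row, RPS10P3, was above RPS10 in DMSO cells, at a mean of 13.4 against 10.5 CPM, and was at 15.5 CPM with UC-764864. The RPS10 row was low for a member and its exons are shared with another gene, as described below. Its rise is therefore uncertain as a change of the whole message.

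**Figure D2:**
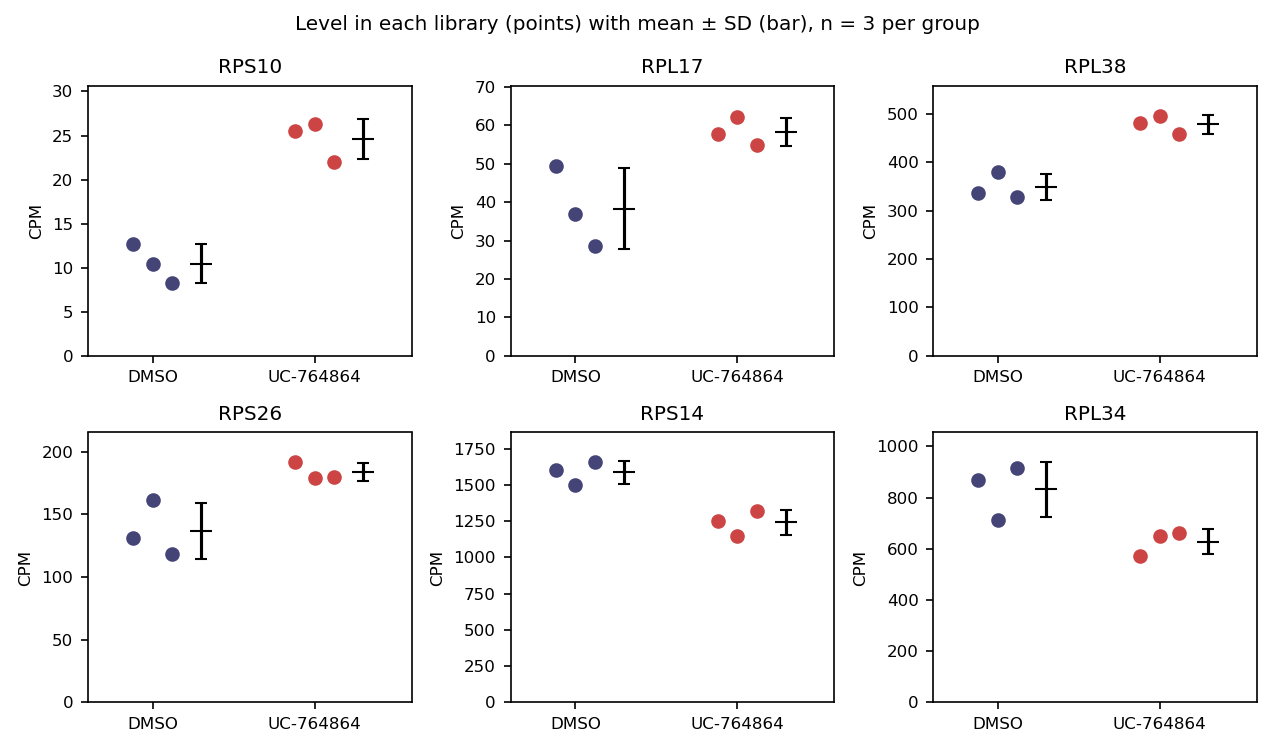
Level in CPM (y axis, from 0) of the 5 members that passed the test and of RPS26 in each DMSO library (blue) and UC-764864 library (red), with the mean ± SD of the group, n = 3. The groups do not overlap in any panel, and the separation relative to the spread is widest for RPS10.

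RPS14 is the small subunit protein linked to the 5q deletion. It was at 1254, 1149.6 and 1320.3 CPM in the treated libraries and at 1604, 1499 and 1657 CPM in the DMSO libraries. All treated libraries lay below all DMSO libraries. The fall was -0.35 ± 0.10 on the log2 scale (edgeR adjusted p = 0.042). It did not pass without UDI0051, UDI0052, UDI0053, UDI0054 or UDI0056, where adjusted p was 0.0864 to 0.174 and log2 fold changes stayed between -0.40 and -0.32. Without UDI0055 it was -0.39 (adjusted p = 0.0169).

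RPS26, which contacts the mRNA upstream of the start codon, was at 192, 179 and 180 CPM with UC-764864 and 131, 161 and 118 CPM with DMSO. Its libraries did not overlap, yet its log2 fold change of 0.42 ± 0.13 missed the threshold (edgeR adjusted p = 0.0506). It passed in 6 of 16 alternatives, among them DESeq2, the fit without UDI0055 (0.56, adjusted p = 0.00774) and the fit with the GC trend removed (0.33, adjusted p = 0.0244). RPS12, RPS18 and RPS3A, of which RPS18 lies in the head of the subunit, had log2 fold changes of -0.29, -0.26 and -0.29 with adjusted p of 0.0959, 0.102 and 0.158. RPS12 and RPS18 did not overlap between the groups, while RPS3A did.

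RPS6, the substrate of the S6 kinases downstream of mTOR, was at 2665, 2679 and 2668 CPM with UC-764864 and 3010, 2770 and 3082 CPM with DMSO. The treated libraries agreed closely and lay below the DMSO libraries, but the log2 fold change was only -0.15 ± 0.09 (edgeR adjusted p = 0.314). RPSA, also known as the laminin receptor, had a log2 fold change of -0.08 (adjusted p = 0.618). RPS27A, made as a fusion of ubiquitin and a small subunit protein, had -0.12 (adjusted p = 0.486). None of these passed the test.

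Among large subunit proteins, RPL38 is known from mouse embryos for its role in translating Hox messages. It was at 482, 496 and 458 CPM with UC-764864 and 337, 380 and 329 CPM with DMSO. Every treated library was above every DMSO library. The rise was 0.46 ± 0.11 on the log2 scale, 1.37-fold (edgeR adjusted p = 0.0204). Without UDI0051, UDI0052, UDI0053 or UDI0054 the adjusted p was 0.0613 to 0.109, with log2 fold changes of 0.40 to 0.49.

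RPL17, a protein that lines the exit tunnel for the nascent chain, was at 57.8, 62.1 and 54.9 CPM with UC-764864 and at 49.4, 36.9 and 28.5 CPM with DMSO. The treated libraries were close to each other and above the DMSO libraries, which were spread widely. The rise was 0.60 ± 0.17 on the log2 scale (edgeR adjusted p = 0.0417). It did not pass without UDI0051, UDI0052, UDI0053 or UDI0055, with adjusted p of 0.0547 to 0.114. Without UDI0054 it was 0.83 (adjusted p = 0.0255), and without UDI0056 it was 0.44 (adjusted p = 0.0488).

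RPL34 was at 571, 651 and 660 CPM with UC-764864 and 869, 712 and 917 CPM with DMSO. All treated libraries were below all DMSO libraries, with UDI0055 the nearest to them. The fall was -0.41 ± 0.12 on the log2 scale (edgeR adjusted p = 0.0472). It passed without UDI0055 at -0.51 (adjusted p = 0.00833), and without any other single library the adjusted p was 0.0659 to 0.231, at -0.46 to -0.33.

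RPL5 and RPL11 join the 5S ribosomal RNA in a particle that can bind MDM2 and so stabilise p53. Their log2 fold changes were -0.08 (adjusted p = 0.667) and 0.06 (adjusted p = 0.72). The stalk proteins RPLP0, RPLP1 and RPLP2, which recruit the elongation factors, had 0.04, 0.14 and 0.02 (adjusted p = 0.839, 0.51 and 0.937). RPL31, another Diamond-Blackfan anaemia gene, had -0.28 (adjusted p = 0.12), and RPL7A had 0.24 (adjusted p = 0.144). Of the 20 tested Diamond-Blackfan anaemia members, 1 (RPS10) rose and 0 fell, with a median log2 fold change of 0.01, beside 5.11% and 8.13% of all genes. By unadjusted p under 0.05, the members that had not passed after adjustment were RPS26 and RPL7A on the higher side and RPS12, RPS18, RPL31 and RPS3A on the lower side.

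The 3 treated libraries lay above all 3 DMSO libraries for 6 members (RPS10, RPL38, RPL17, RPS26, RPL7A and RPL4) and below them for 8 (RPS14, RPL34, RPS12, RPS18, RPL29, RPS13, RPL15 and RPS6). Among all tested genes the groups did not overlap in these directions for 19.0% and 17.0%. The members' 6 and 8 of 76 are therefore below the background in both directions. Counts of members called changed with the fit. DESeq2 called 4 members higher and 2 lower, beside 6.35% and 10.2% of all genes. Without UDI0055, 5 were higher and 8 lower, beside 11.1% and 12.6%, and without both UDI0052 and UDI0056, 2 were higher and 1 lower, beside 4.07% and 8.98%.

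The 4 X-linked members have no value in UDI0055 and were fitted without it, over 14186 genes, with 3 treated and 2 DMSO libraries. RPL10, which joins the large subunit late in its assembly, was at 1554 ± 90.8 CPM with UC-764864 and 1755 ± 209 CPM with DMSO (SD), a log2 fold change of -0.18 (edgeR adjusted p = 0.248). RPL39 was at 705 ± 86.0 against 797 ± 4.50 CPM (-0.18, adjusted p = 0.286) and RPS4X at 1393 ± 56.3 against 1369 ± 1.51 CPM (0.03, adjusted p = 0.871). RPL36A was at 14.5 ± 2.58 against 13.0 ± 2.13 CPM (0.15, adjusted p = 0.557). None of the 4 passed the test. In this fit 9.88% of all genes rose and 13.9% fell, and 5 members rose and 8 fell.

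Each library gave a share of its counts to the members that every library holds. That share was 12.1%, 11.9% and 12.7% after UC-764864 and 14.0%, 12.6% and 12.8% after DMSO. UDI0054 was the highest, and the treated library UDI0053 lay above the DMSO library UDI0055, so the groups overlap. The means were 12.2 ± 0.421% and 13.1 ± 0.734% (SD, n = 3 per group). The rows of ribosomal protein pseudogenes added 2.88 to 3.25 counts per 100 counts of the members.

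The balance between the subunits, looked at after other summaries had been seen, differed between the groups without overlap. Counts of small subunit members divided by those of large subunit members gave 0.616, 0.621 and 0.625 after UC-764864 and 0.666, 0.639 and 0.668 after DMSO. All treated libraries were lower, and UDI0055 was the DMSO library nearest to them. With each gene weighted equally, over 28 small and 42 large subunit members, the mean log2(CPM + 1) of small minus large subunit genes was -0.08, -0.10 and -0.06 after UC-764864 and 0.01, -0.01 and -0.02 after DMSO. The median log2 fold change was -0.07 for the 32 tested small subunit members (1 rose, 1 fell) and 0.00 for the 44 large subunit members (2 rose, 1 fell), and the small subunit median was the lower in all 17 fits, which share libraries. The median GC content of the genes was 51.4% (small, 28 genes) and 50.8% (large, 43 genes). With each library's GC trend removed the medians were -0.14 and -0.09. No test was run on this balance, since it was chosen with its values in view.

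**Figure D3:**
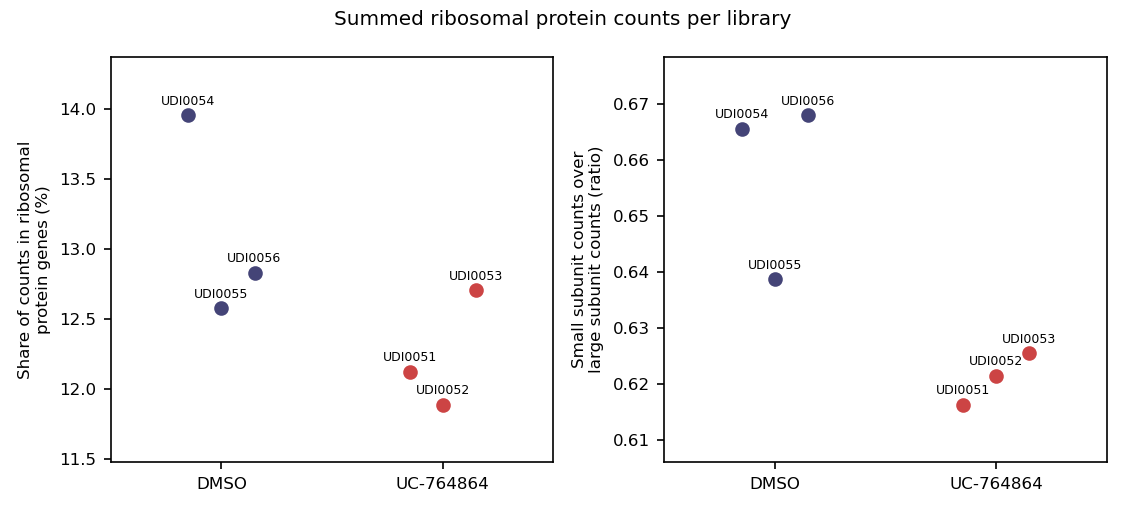
Share of counts in ribosomal protein genes in percent (left) and ratio of small to large subunit counts (right), one point per library, with axes that do not start at 0. The shares overlap between groups, while the ratios are 0.616 to 0.625 after UC-764864 and 0.639 to 0.668 after DMSO.

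Per kilobase of transcript (GENCODE 29 lengths, median over a gene's transcripts), RPS18, RPL7, RPL8, RPL13A and RPL30 had the highest levels in DMSO cells, at 7347, 6491, 5867, 5395 and 5110 CPM per kb. Among the lowest of the members with more than a few counts were RPS10 at 15.9, RPL36A at 18.8, RPL39L at 20.9, RPL17 at 54.3 and RPS26 at 120.0 CPM per kb. Leaving out RPS10, RPL17, RPL36A, the restricted paralogs and 1 uneven member, 73 members ranged from 120.0 to 7347 CPM per kb, with a median of 2315. RPS10 and RPL17 thus lay below every one of these 73, although each ribosome holds most of these proteins in equal number.

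The low levels of RPS10, RPL17 and RPL36A go with exon sharing on the same strand in the annotation, which was looked at after the levels. In GENCODE 29, RPL17 shares 53.3% of its exon bases with other genes on the same strand (RPL17-C18orf32 and SNORD58B), RPS10 shares 47.3% with RPS10-NUDT3 and RPL36A shares 26.6% with RPL36A-HNRNPH2. On the same strand these are the 3 highest shares among the members, ahead of RPL26 with 21.5%. On either strand the order differs. RPL10 then shares 63.2%, at 2462 CPM per kb in DMSO cells, ahead of RPL17 with 58.4%. RPL38, which rose, shares 43.2%, at 811 CPM per kb. RPS25 with 36.6% and RPS28 with 27.5% are also above RPL36A. The readthrough genes, whose transcripts run from one gene into the next, held 0 to 2 counts per library in their own rows. Whether reads on shared exons were counted, and whether strand was used, is not given in the sources used here. The part of exon sharing in these levels and in the rises of RPS10, RPL17 and RPL38 was not tested. The CPM values of members with shared exons are therefore uncertain as levels of the whole message.

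**Figure D4:**
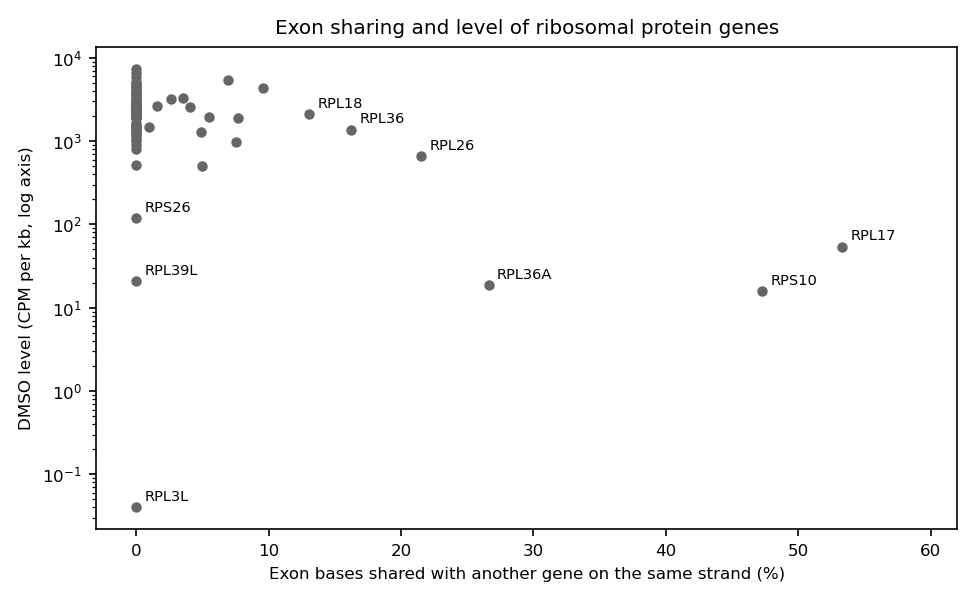
Percent of a member's exon bases that lie in another gene on the same strand in GENCODE 29 (x axis) against its level in DMSO cells in CPM per kb (log y axis), one point per member shown. RPL17 and RPS10 lie furthest right, at 53.3% and 47.3%, and both are below 100 CPM per kb, as are RPL36A, RPL39L and RPL3L.

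Pseudogene rows offer a second reading of some members, since processed copies are near-identical and can take their reads, which makes both uncertain. Of 844 rows named as ribosomal protein pseudogenes 95 were tested, of which 4 rose and 14 fell, beside 5.11% and 8.13% of all tested genes. RPS10P7 was at 3.33 ± 0.464 CPM with UC-764864 and 1.81 ± 0.0629 CPM with DMSO (0.87, edgeR adjusted p = 0.0187), in the direction of RPS10, while RPS10P3 had 0.20 (adjusted p = 0.463). RPL34P18 was lower, at -0.67 (adjusted p = 0.0255), in the direction of RPL34. RPL17P50, at 0.94 CPM with UC-764864 and 1.22 CPM with DMSO, had -0.37 (adjusted p = 0.422), the sign opposite to RPL17. RPS14P3, at 0.64 and 0.84 CPM, had -0.47 (adjusted p = 0.438). Both rows were sparse and their groups overlapped, so their signs are uncertain. The call for RPS10P7 was lost without UDI0051, UDI0052 or UDI0054, and that for RPL34P18 without UDI0051 or UDI0054. RPL3P4 fell from 101.5 ± 15.1 to 53.4 ± 5.61 CPM (-0.93, adjusted p = 0.0041) and RPL3P7 also fell (-1.70, adjusted p = 0.00869). RPL3 itself, the source of these copies, had -0.11 (adjusted p = 0.457).

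Within a group, the members moved together with their GC content, which was looked at after other summaries. Over 73 tested members (without 3 uneven or sparse rows), the deviation of a gene's log2 level from its group mean had a Spearman correlation across genes with GC of 0.72, -0.77 and 0.56 in UDI0051, UDI0052 and UDI0053 and of -0.22, 0.79 and -0.72 in UDI0054, UDI0055 and UDI0056. These genes share libraries and are not independent replicates, so no p is given. GC-rich members were low in UDI0052 and UDI0056, with median deviations of -0.16 and -0.20 for the 24 members of highest GC, and high in UDI0055. The log2 fold change itself had a correlation of 0.04 with GC. With each library's GC trend removed, 5 of 76 members rose and 21 fell, beside 16.5% and 15.9% of all genes in that fit. The members' share of falls was thus above the background of that fit, and their share of rises below it. There were more falls among the members than without that step.

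**Figure D5:**
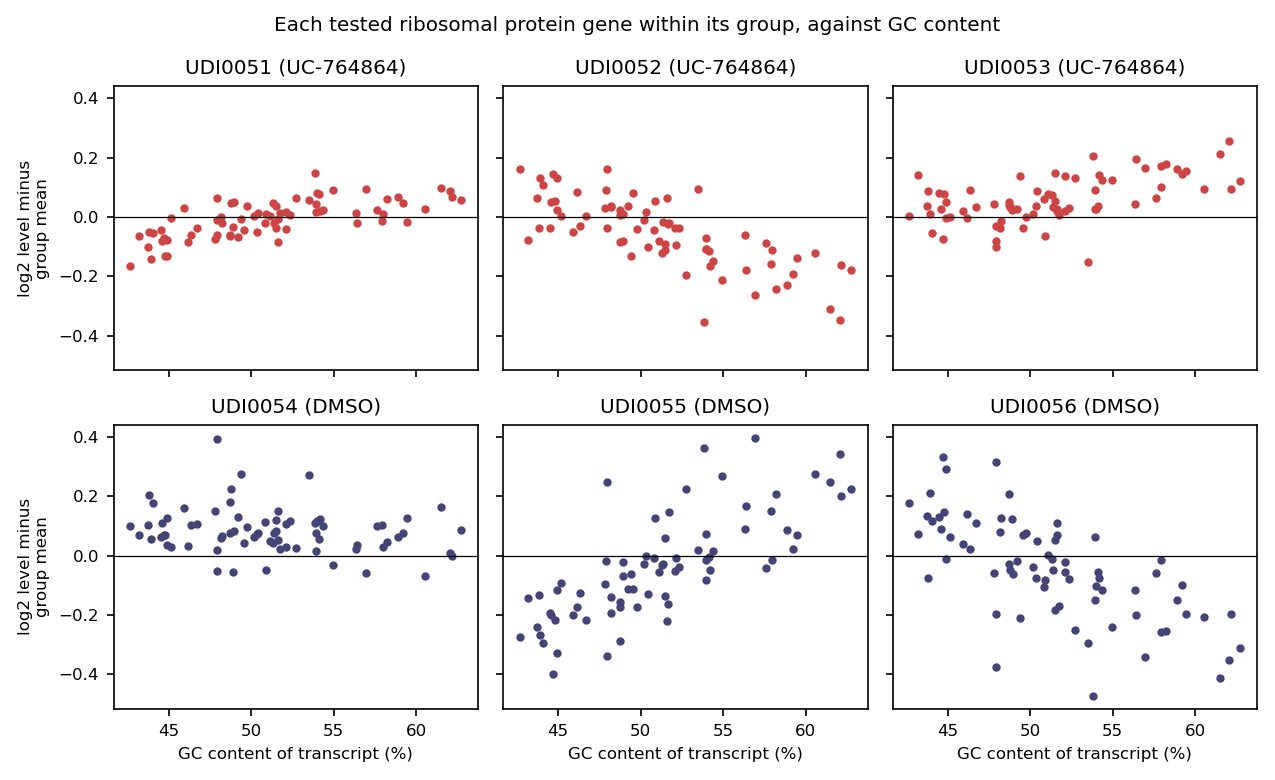
Deviation of the log2 level from the group mean (y axis) against GC content of the transcript in percent (x axis) for 73 tested members, one panel per library. The points fall from left to right in UDI0052 and UDI0056 and rise in UDI0051, UDI0053 and UDI0055. Deviations of a gene cancel out within a group, so the trends of a group's libraries are not separate observations.

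Genes listed for the control of ribosomal protein synthesis, by transcription as well as translation, were kept apart from the members. Of 12 tested, 4 rose and 0 fell, beside 5.11% and 8.13% of all genes, with a median log2 fold change of 0.21. MTOR, the kinase, was at 119, 100.1 and 98.7 CPM with UC-764864 and 59.1, 72.7 and 53.3 CPM with DMSO, without overlap, a rise of 0.78 ± 0.14 (edgeR adjusted p = 0.0086). LARP1, which binds the TOP motif, rose by 0.53 (adjusted p = 0.0228), EIF4G1, the scaffold of the cap-binding complex, by 0.65 (adjusted p = 0.0199) and MYC, a transcriptional activator of ribosome genes, by 0.44 (adjusted p = 0.0437). MTOR passed in each fit that left out 1 library. EIF4G1 and LARP1 did not pass without UDI0051, UDI0053 or UDI0054, and MYC passed in such fits only without UDI0055. Of 12 elongation factor and other TOP genes tested, 0 rose and 1 fell, with 8 of the 12 above 0 and a median of 0.06. The difference between these lists was not tested. The gene that fell was EIF3E, at -0.54 (adjusted p = 0.0466), whose groups overlap and which did not pass without UDI0051, UDI0053, UDI0054 or UDI0056. With the GC trend removed EIF3E was at -0.25 (adjusted p = 0.0356).

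Factors that escort ribosomal proteins and assemble the subunits gave 7 of 27 tested as higher and 0 as lower, beside 5.11% and 8.13% of all genes, with a median of 0.27. The first by p were MDN1, an ATPase that releases assembly factors from the large subunit (0.63, edgeR adjusted p = 0.00726), LSG1, a GTPase of late large subunit maturation (0.53, adjusted p = 0.0131), TSR1 (0.53, adjusted p = 0.0154) and PNO1 (0.55, adjusted p = 0.016), both of small subunit maturation. MDN1 passed without any single library, and the other 3 did not pass without UDI0051 or UDI0054. Another list held genes that add ubiquitin to ribosomes or remove it, or that respond to stalled ribosomes. Of its 14 tested genes, 0 rose and 1 fell. The gene that fell was LTN1, the ligase for stalled nascent chains (-0.62, edgeR adjusted p = 0.0467). Its groups overlap, and it did not pass without UDI0051, UDI0053, UDI0054 or UDI0056. With the GC trend removed LTN1 was at -0.17 and did not pass (adjusted p = 0.115). With the zeros of UDI0055 kept as counts, most calls from this list, the assembly list and the list of synthesis control were lost. Of the genes named here as having passed from these lists, MDN1 alone still passed (edgeR adjusted p = 0.0479). ZNF598, the ligase for RPS10, had 0.20 (adjusted p = 0.46).

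The paralogs and the ribosomal proteins with other names, 8 tested, held 0 genes that rose or fell by the edgeR test, and their median was 0.12. The smallest p belonged to RPL26L1, at 0.36 (adjusted p = 0.0806). FAU, a fusion with a small subunit protein, had -0.24 (adjusted p = 0.188) and GNB2L1, the scaffold RACK1, 0.27 (adjusted p = 0.15). Of the 4 ubiquitin genes, including RPS27A, 0 passed, with UBB the first at 0.34 (adjusted p = 0.0843). Proteins of the mitochondrial ribosome, a separate machine, gave 3 of 75 tested as higher (MRPS5, MRPL20 and MRPL16, at 0.50, 0.43 and 0.42) and 0 as lower, beside 5.11% and 8.13% of all genes, with a median of 0.17 beside -0.02 for the cytosolic members. The difference between these medians was not tested. MRPS5 did not pass without UDI0051 or UDI0054, and MRPL20 and MRPL16 passed with 1 library left out only without UDI0055.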

How the data were processed

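Per the labels' protocols, poly(A) RNA was read in pairs of 75 bp. The authors deposited whole-number read counts per gene symbol, with no normalization. Per the submitters' processing notes, which give no roles, the tools were featureCounts 1.5.2, HISAT2 2.0.5 and FastQC 0.11.7 and the build was GRCh37. Not given in the sources used here are the annotation release, the strand setting and the treatment of reads shared by genes.

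The members and all lists were chosen with earlier results of these data known. Rows in the runs of zeros in UDI0055 were left out. Counts were tested in R 4.3.3 with edgeR 4.0.16 (filterByExpr, TMM, quasi-likelihood test, treatment as the only term) and adjusted by Benjamini-Hochberg over all 13490 genes, with an adjusted p under 0.05 as the threshold. The script was tested on simulated data, with changes given to genes drawn from all that passed the filter. Among those genes, changes of 0.5 on the log2 scale were missed more often than found. That rate was not measured for the members, most of which are abundant. A member that did not pass may still differ between the groups, within what its own standard error allows. CPM values use TMM-scaled totals. A count of 3, taken as the floor, was 0.123 to 0.198 CPM, which covers counting error only. Chi-square values between libraries were 4.73 to 86.7 per degree of freedom, so no pair came down to sampling noise. Pairs of treated libraries gave 4.73 to 17.9, below every other pair. The DMSO library UDI0055 gave 20.6 and 45 with the DMSO libraries UDI0054 and UDI0056. With the treated libraries UDI0051, UDI0052 and UDI0053 it gave 34.4, 40 and 19.5, so DMSO libraries differed about as much as some pairs across groups. DESeq2 1.42.0, other scalings, no filter, left-out libraries and a GC correction (lowess, span 0.3, on the 90.3% of tested genes with a GC value) were alternatives. Named genes are members, plus up to 4 genes of each other list in order of p, and pseudogene or readthrough rows of a member; ZNF598, FAU, GNB2L1, RPL3P4 and RPL3P7 were added after their values were seen. Lengths, GC and exon sharing are from GENCODE 29, and sequences from RefSeq (GRCh38.p14), matched by symbol. A few genes are counted in the totals and not reported here by name.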

Additional observations from a re-analysis of the deposited data

How the results depend on the processing

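Counts of members depended on single libraries. With 1 library left out, 1 to 5 members were higher and 0 to 8 lower, and over all genes 62 to 1525 were higher and 278 to 1729 lower. The most came without UDI0055 and the fewest without UDI0051. On every row without UDI0055, 5 members were higher and 8 lower (all genes 1401 and 1974). Without both UDI0052 and UDI0056, 1 member was lower. With the zeros of UDI0055 kept as counts, 1 member was higher (RPS10) and 0 lower (all genes 22 and 125). With no filter, 5 members were higher and 2 lower (all genes 827 and 1676). With the GC trend removed, 5 members were higher and 21 lower (all genes 2015 and 1940), and 50.9% of calls were rises, against 38.6%. With library size as the only scaling that share was 28.6%. The cause was not tested, except that 1 library fewer leaves fewer samples. RPS10 was called in all 17 fits, RPL38 in 12, RPL34 and RPS14 in 10, RPL17 in 9 and RPS26 in 6. The sign of 36 of the 76 tested members changed in some fit, and that of 40 in none. For the 21 genes given full tests across fits, 241 of 334 alternative values kept their call, 87 lost it and 6 gained one, with 0 reversed. No paired analysis was possible because the columns carry a treatment and no replicate number. Depth was not the limit for most members, while RPL3L and RPL10L lay at or near the floor.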
